A study of Arabidopsis thaliana with 8 samples.

Results

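The transcripts of CHLP (AT1G74470, geranylgeranyl reductase) and CHLM (AT4G25080, Mg-protoporphyrin IX methyltransferase) were compared between the Arabidopsis thaliana mutant petc and wild type (WT). Both were chosen by gene: a probe was taken where the platform annotation pairs it with exactly 1 gene and that gene is CHLP or CHLM. This gave 2 probes, 1 for each gene. They stand for 2 of the 691 genes named in this way, and the array has 692 probes with exactly 1 gene among 3439. The annotation lists CHLM by its symbol and CHLP by its locus tag.

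Chlorophyll is assembled in the plastid by nuclear-encoded enzymes from a tetrapyrrole ring and a phytyl tail. CHLM acts early in the magnesium branch: it transfers a methyl group to Mg-protoporphyrin IX, the product of magnesium chelatase, and its product goes on to the ring cyclase. CHLP acts near the end: it reduces geranylgeranyl chains to phytyl chains, which are used for chlorophyll and also for tocopherol. The pair therefore samples the ring side and the tail side of the pathway.

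The 4 petc samples came from a mutant without the Rieske protein. This iron-sulfur protein is the part of the thylakoid cytochrome b6f complex that hands on electrons between the photosystems. The 4 WT samples carried no stated alteration. All were total RNA of the ecotype Landsberg. The labels give no allele, tissue, age, growth condition or treatment, and they do not say whether replicates were separate plants, so each p-value below is set against a sample spread that could be technical only.

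The summed deposited intensity was 3352 to 3440 in petc and 3287 to 3317 in WT. Between 2978 and 3009 of the probes were above 0 in a sample. Numbers 1 and 2 of a group were close to each other, and so were numbers 3 and 4. Spearman's rho across probes was 0.975 to 0.988 within these sets and 0.900 to 0.921 between the sets of a group. PETC was not analysed here, so the mutant label was not checked through its own gene. In bulk RNA, fewer cells of a type and less RNA per cell cannot be told apart.

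CHLP was higher in petc on the deposited scale and did not differ past the threshold once the arrays were normalised to each other. Its deposited intensity, in arbitrary units, was 2.49, 2.51, 2.28 and 2.26 in petc replicates 1 to 4, against 1.998, 2.09, 1.88 and 1.99 in WT replicates 1 to 4. Every petc sample lay above every WT sample. This held for 16.6% of the 2947 tested probes in that direction, so the separation is shared with many probes. The mean was 2.39 ± 0.135 in petc and 1.99 ± 0.0862 in WT (SD, n = 4 each). An exact two-sided permutation of the group labels gave p = 0.0286 for the deposited log2 values, the smallest that 4 against 4 samples can give.

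After quantile normalisation, which gives every array the same distribution of values, the CHLP groups overlapped. The log2 values were 1.25, 1.26, 1.07 and 1.05 in petc and 1.11, 1.16, 0.99 and 1.06 in WT, in the order of the replicate numbers. Both petc samples of numbers 1 and 2 stayed above all WT samples. The petc samples of numbers 3 and 4 lay among the WT values, so not all petc values were above all WT values, as they were for 14.7% of the probes on this scale. The log2 fold change was 0.08 ± 0.09 (SE) with limma adjusted p = 0.614, or 1.06-fold with a 95% confidence interval of 0.908-fold to 1.23-fold. An exact two-sided permutation test gave p = 0.286.

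CHLM did not pass the threshold on either scale. Its deposited intensity was 0.475, 0.417, 0.454 and 0.469 in petc replicates 1 to 4, against 0.398, 0.426, 0.441 and 0.290 in WT replicates 1 to 4. The groups overlapped, because petc replicate 2 lay below WT replicates 2 and 3, while 3 of the 4 petc samples were above all WT samples. The mean was 0.454 ± 0.0260 in petc and 0.389 ± 0.0683 in WT (SD, n = 4 each). WT replicate 4 was the lowest of the 8 samples.

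On the quantile-normalised log2 scale, CHLM was -1.03, -1.21, -1.19 and -1.16 in petc and -1.30, -1.21, -1.17 and -1.79 in WT. The log2 fold change was 0.22 ± 0.15 (SE) with limma adjusted p = 0.333, or 1.16-fold with a 95% confidence interval of 0.919-fold to 1.47-fold. An exact two-sided permutation test gave p = 0.143. Without WT replicate 4 the log2 fold change was 0.08 with limma adjusted p = 0.646, so this sample carried most of the difference. Leaving out any other single sample gave 0.18 to 0.28.

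**Figure D1:**
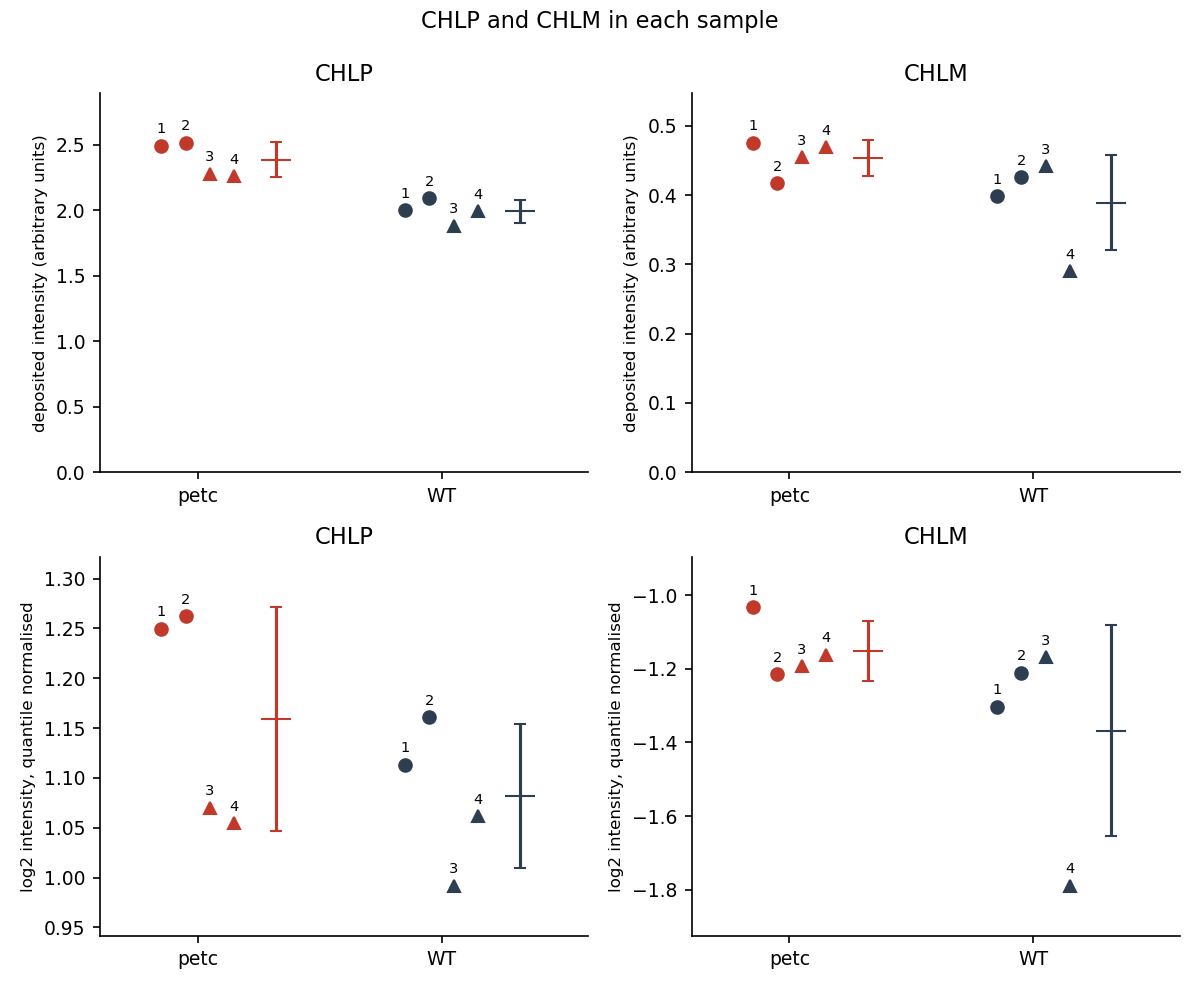
Values of CHLP (left) and CHLM (right) in each sample, with petc in red and WT in dark blue: deposited intensity in arbitrary units (top) and quantile-normalised log2 intensity (bottom, axes not from 0). Points carry the replicate number, circles are numbers 1 and 2, triangles are numbers 3 and 4, and bars show the mean ± SD of 4 samples. The CHLP groups are apart on the deposited scale and overlap after normalisation, and the CHLM groups overlap in both, with WT replicate 4 the lowest.

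Neither of the 2 genes passed limma with Benjamini-Hochberg adjustment over all 2947 tested probes at 0.05, where 27.9% of the probes did, 12.7% as higher in petc. Both had a positive log2 fold change. The size of the CHLP change was small among the probes: 14.6% of them changed by less in either direction. For CHLM this share was 39.1%. The confidence intervals, limma p-values and exact permutation p-values given above take the 8 samples as independent. With numbers 1 and 2, and 3 and 4, as correlated readings, the interval was 0.855-fold to 1.30-fold for CHLP and 0.737-fold to 1.83-fold for CHLM. Without WT replicate 4 the CHLM interval was 0.898-fold to 1.24-fold.

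**Figure D2:**
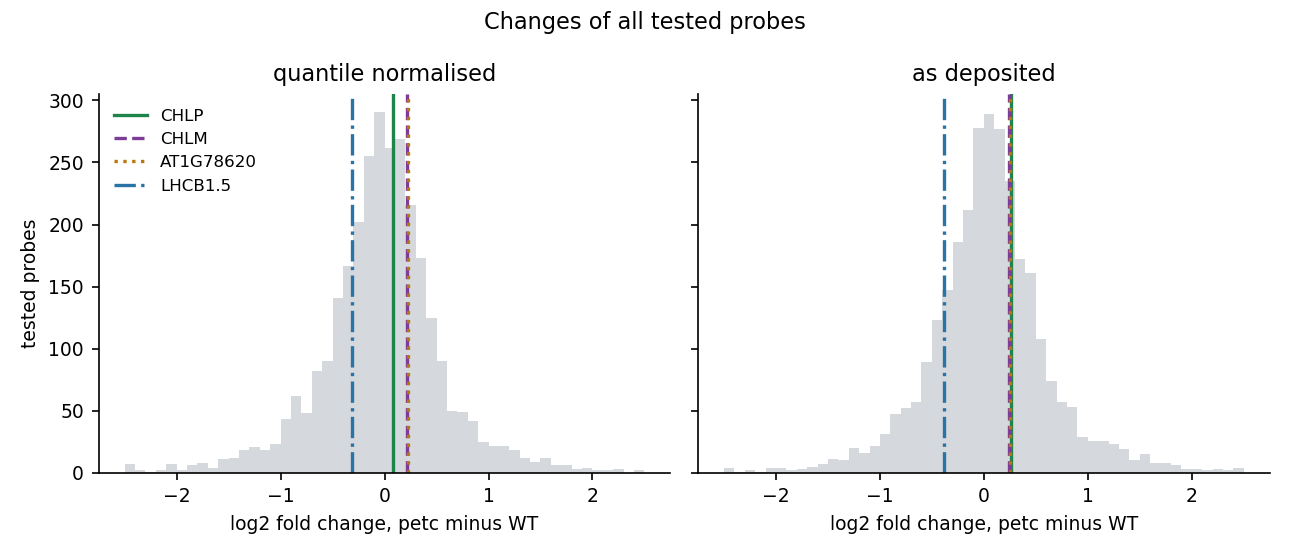
Number of tested probes by log2 fold change, petc minus WT, after quantile normalisation (left) and as deposited (right), with changes beyond 2.5 in the end bars. Lines mark CHLP, CHLM, AT1G78620 and LHCB1.5. CHLP lies at 0.08 on the left and 0.26 on the right, while CHLM lies at 0.22 and 0.24, all inside the bulk of the probes.

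Whether CHLP passed the threshold differed between scalings, and between treatments of the replicates on the deposited scale. Whether its rise as deposited came from the scaling of the arrays was not tested. With the values as deposited, the CHLP log2 fold change was 0.26 ± 0.08 (SE) with limma adjusted p = 0.0490, or 1.198-fold with a 95% confidence interval of 1.05-fold to 1.37-fold. In that fit 28.3% of the probes passed, and 15.2% passed as higher in petc. Leaving out any 1 of the 8 samples took the CHLP call away, with limma adjusted p from 0.0616 to 0.122 and log2 fold changes of 0.23 to 0.29. Median centring gave 0.22 (limma adjusted p = 0.153) and scaling to equal totals gave 0.22 (limma adjusted p = 0.0986). Cyclic loess gave 0.08 (limma adjusted p = 0.515), and centring on a running median over brightness gave 0.04 (limma adjusted p = 0.778).

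The normalisation moved CHLP in opposite directions in the groups. It changed the CHLP log2 value by -0.09 on average in petc and by 0.09 in WT, and the CHLM value by -0.01 in petc and 0.01 in WT. As deposited, the 201 probes closest to CHLP in brightness had a median log2 change of 0.19 between petc and WT, and 53.2% of them had a lower signed change than CHLP, falls included. The 201 probes closest to CHLM had a median of 0.03, against 0.05 over all probes above 0 in every sample, and 73.1% of them had a lower change than CHLM. In signed change, CHLP stood near the middle of probes of its own brightness on both scales, with 55.2% lower after quantile normalisation. These 201 probes spread widely as deposited, with quartiles of -0.296 and 0.762.

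**Figure D3:**
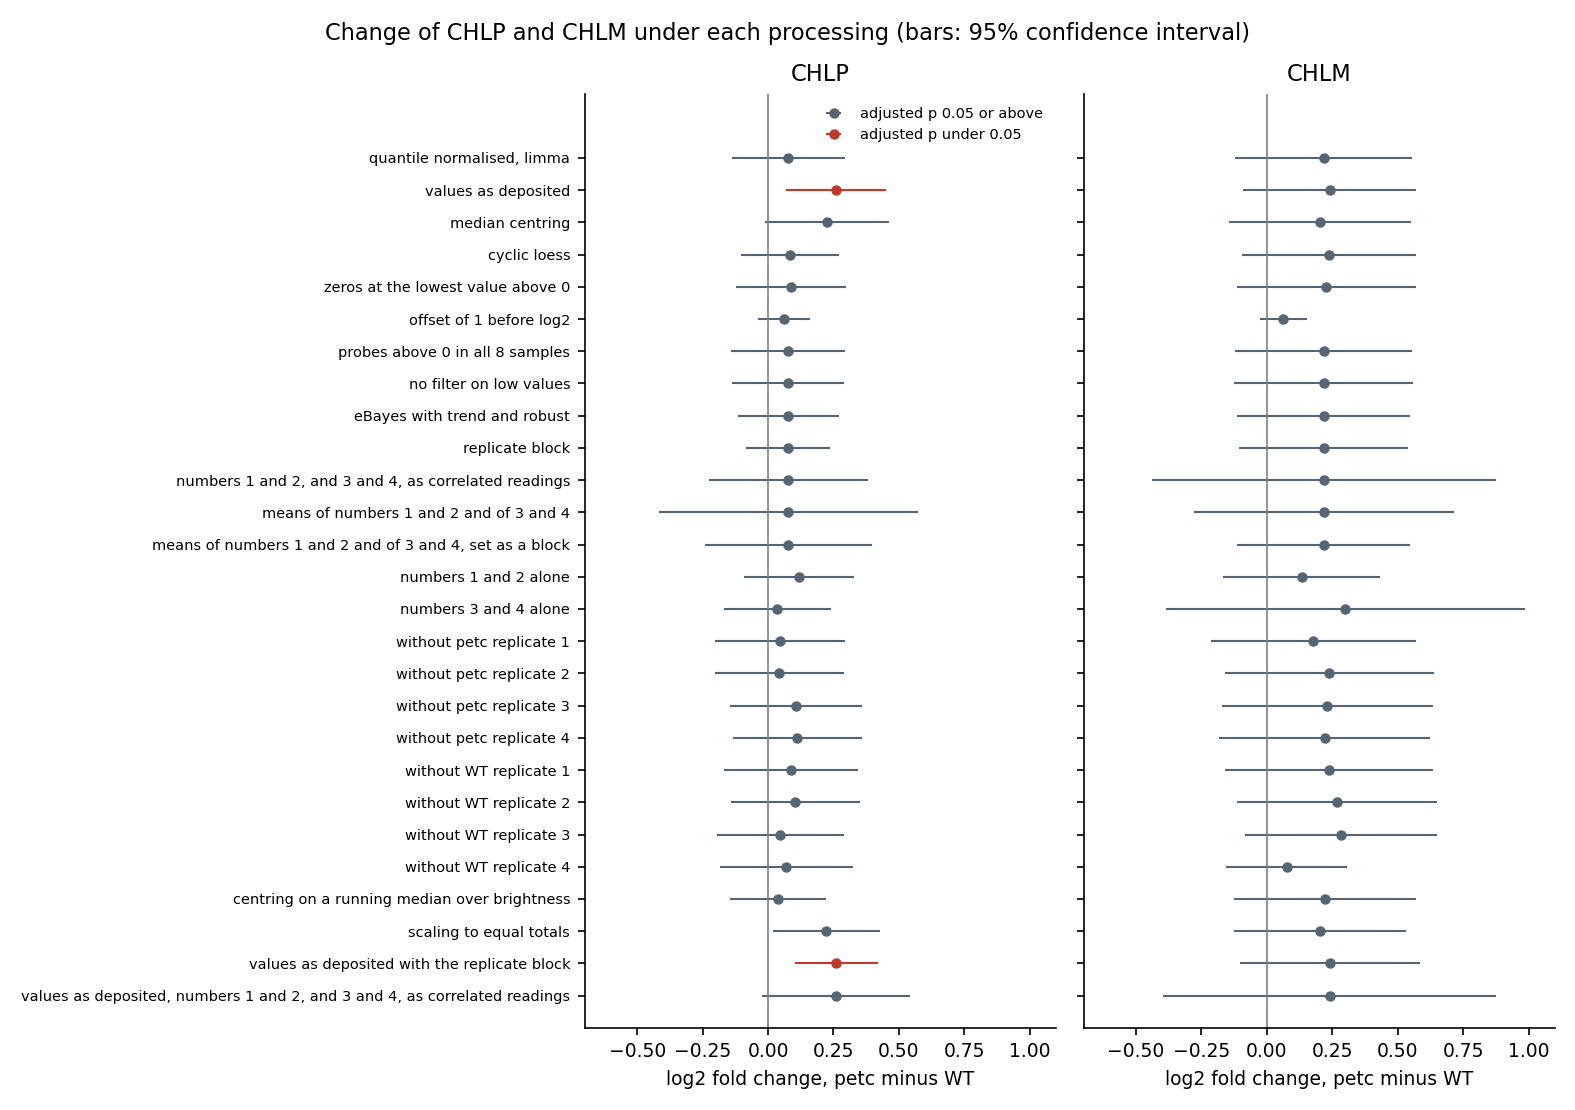
Log2 fold change of CHLP (left) and CHLM (right), petc minus WT, under the processings named on the vertical axis, with 95% confidence intervals from limma. Red marks limma adjusted p under 0.05. CHLP is red in 2 fits, both on the values as deposited, and CHLM in none of those drawn.

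Samples of the same replicate number were also set side by side. On the deposited scale CHLP was higher in petc for all 4 numbers, by 0.32, 0.26, 0.28 and 0.18 on the log2 scale for numbers 1 to 4. After quantile normalisation these differences were 0.14, 0.10, 0.08 and -0.01. For CHLM the deposited differences were 0.25, -0.03, 0.04 and 0.69, and the normalised ones 0.27, -0.004, -0.03 and 0.63. The CHLP differences spread by a like amount on both scales, from 0.18 to 0.32 as deposited and from -0.01 to 0.14 after normalisation. CHLM had most of its difference in numbers 1 and 4 on both scales. A limma fit with the number as a block gave adjusted p = 0.366 for CHLP and 0.218 for CHLM, where 46.6% of the probes passed.

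**Figure D4:**
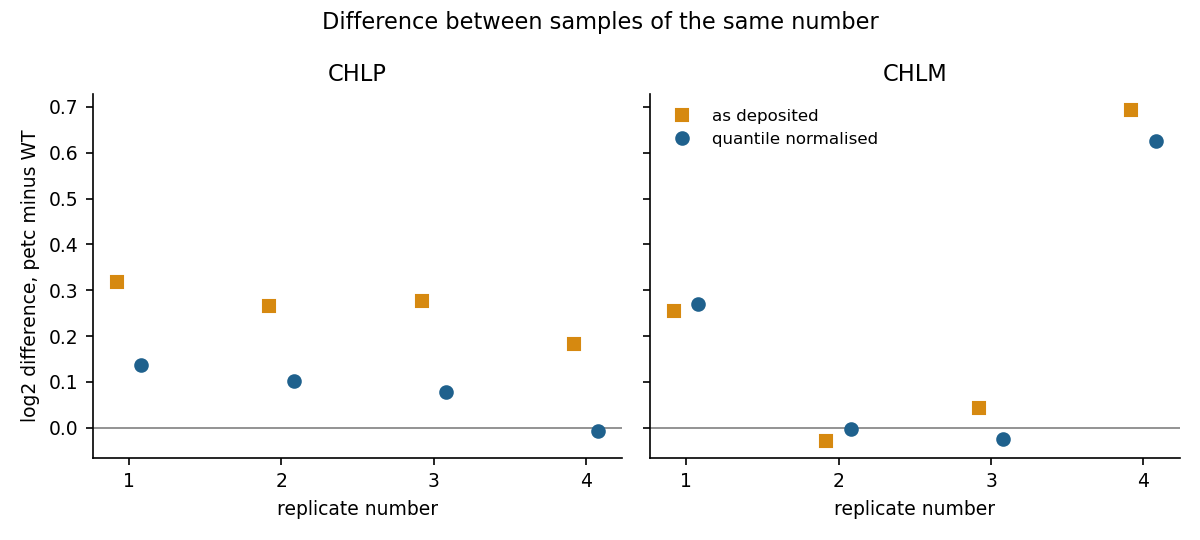
Log2 difference, petc minus WT, between samples of the same replicate number for CHLP (left) and CHLM (right), as deposited (orange squares) and after quantile normalisation (blue circles). The CHLP differences lie between 0.18 and 0.32 as deposited and between -0.01 and 0.14 after normalisation, and those of CHLM spread from -0.03 to 0.69 over both scales.

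The members differed most in WT in how closely replicates agreed. The SD of normalised CHLP log2 values was 0.112 in petc and 0.0724 in WT, where the median over tested probes was 0.206 in petc and 0.239 in WT. CHLM had an SD of 0.0818 in petc and 0.286 in WT, where 59.9% of the probes had a smaller SD. Within sets CHLP varied little: numbers 1 and 2 differed by 0.01 in petc and 0.05 in WT, and numbers 3 and 4 by 0.02 in petc and 0.07 in WT. CHLP in numbers 3 and 4 was below numbers 1 and 2, by a log2 difference of -0.19 in petc and -0.11 in WT. WT numbers 3 and 4 differed by 0.62 for CHLM, the widest gap within a set for either gene.

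The change in petc was also taken for each set. For CHLP the log2 fold change was 0.12 among numbers 1 and 2 and 0.04 among numbers 3 and 4. For CHLM it was 0.13 among numbers 1 and 2 and 0.30 among numbers 3 and 4. The difference of these changes, numbers 3 and 4 minus numbers 1 and 2, was -0.08 ± 0.10 (SE, limma adjusted p = 0.754) for CHLP and 0.17 ± 0.28 (limma adjusted p = 0.833) for CHLM. In that test 0.102% of the probes passed.

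Whether the transcripts changed by unequal amounts was tested within arrays, where a scaling by 1 factor per array cancels. The log2 value of CHLM minus that of CHLP was taken in each sample and set to 0 at its WT mean. As deposited it was -0.02, -0.22, 0.05 and 0.10 in petc replicates 1 to 4, against 0.05, 0.08, 0.28 and -0.41 in WT replicates 1 to 4. All petc values lay inside the WT range. The change between groups was -0.02 as deposited (exact two-sided permutation p = 0.914) and 0.14 after quantile normalisation (exact p = 0.486), so its direction turned with the scaling. An unequal change of the 2 transcripts was not detected with 4 samples per group, which does not show an equal one.

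Other genes of chlorophyll metabolism were taken from 6 lists with 84 genes: common tetrapyrrole steps, the magnesium branch, the heme, bilin and siroheme branches, the chlorophyll cycle and breakdown, prenyl chain supply and tocopherol, and chlorophyll-binding antenna proteins. Of the 84, 4 were measured on a probe with 1 gene, CHLP and CHLM among them, and 0 of the 4 passed in either direction in limma, where 27.9% of all probes did. A further 8 were paired only with probes of several genes, which were not used, and the other 72 are not analysed here. In the magnesium branch, CHLP and CHLM were the 2 measured of 17 genes. No gene of the common steps, the heme, bilin and siroheme branches or the breakdown list was measured on such a probe, so the pathway cannot be described beyond these genes.

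LHCB1.5 (AT2G34420), a protein of the light-harvesting antenna of photosystem II that binds chlorophyll, belongs to a family of similar genes that 1 probe may not tell apart. It had a deposited intensity of 23.4 ± 1.61 in petc and 30.5 ± 2.84 in WT (SD, n = 4 each). Its log2 fold change was -0.32 ± 0.12 (SE) with limma adjusted p = 0.0854, and it missed the threshold with quantile normalisation. It passed in limma with every other scaling run on all 8 samples taken as independent: as deposited (-0.38, adjusted p = 0.025), after median centring (0.0287), cyclic loess (0.00684), running-median centring (0.0263) and scaling to equal totals (0.0181), and also with an offset of 1 before log2 (0.0400). In all it passed in 11 of 34 alternatives, with adjusted p of 0.00684 to 0.436, and the deposited call was lost without petc replicate 1 or 4 or WT replicate 3 or 4. Within arrays, LHCB1.5 minus CHLP was lower in all 4 petc samples than in all 4 WT samples, by a log2 difference of -0.39 after quantile normalisation and -0.64 as deposited (exact two-sided permutation p = 0.0286, the smallest possible). For LHCB1.5 minus CHLM it was -0.53 after normalisation and -0.62 as deposited, with the same exact p. Both pairs belong to 6 pairs among the 4 measured genes, and with Benjamini-Hochberg adjustment over those 6 the exact permutation p was 0.0857. These comparisons, other than CHLM with CHLP, were chosen after values were seen. The exact permutation takes the 8 samples as independent, and labels were not permuted within replicate numbers for the pairs with LHCB1.5. By itself, LHCB1.5 also had all petc values below all WT values on both scales. How many probes or pairs of probes separate the groups in this direction was not counted.

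AT1G78620, the measured gene of the list on prenyl chain supply and tocopherol, has no name in the RefSeq table. Its deposited intensity was 0.552, 0.561, 1.65 and 1.53 in petc replicates 1 to 4, against 0.481, 0.508, 1.25 and 1.26 in WT replicates 1 to 4. Numbers 3 and 4 were above numbers 1 and 2 in both groups, by 1.40 in petc and 1.37 in WT on the normalised log2 scale, a set difference far larger than that of CHLP. The log2 fold change was 0.22 ± 0.49 (SE, limma adjusted p = 0.802). It passed when the number was a block in the fit (limma adjusted p = 0.0354), as did 46.6% of all tested probes. That call was lost with the mean of each set in each group and the set as a block (limma adjusted p = 0.239). Its values in petc were higher for all 4 numbers, by 0.16 to 0.28. How many probes were higher for all 4 numbers was not counted. Over all alternatives the limma adjusted p ran from 0.0354 to 0.994.

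The genes whose normalised log2 values followed each member most closely over the 8 samples were sought among 586 other probes with 1 gene and a value above 0 in every sample. For CHLP they were AT3G50880 (Pearson r = 0.955, Spearman rho = 0.905), AT2G18920 (r = 0.954, rho = 0.952) and AT2G47830 (r = 0.943, rho = 0.881). On the deposited scale r was 0.654, 0.797 and 0.648, lower for all 3 genes. For CHLM they were AT5G04600 (r = 0.910, rho = 0.810), AT5G17630 (r = 0.892, rho = 0.119) and AT2G01400 (r = 0.885, rho = 0.476). Without WT replicate 4, r with CHLM was 0.697, -0.347 and 0.693 for these genes, lower for all 3 and of the opposite sign for AT5G17630. The 8 samples fall into sets and share array-wide shifts, so these r values are descriptions.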

How the data were processed

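The table deposited by the authors holds a linear intensity for each probe and sample, with a highest value of 100. How the authors scanned, corrected, scaled or filtered it is not given in the sources consulted. Gene names came from GEO's platform annotation, which pairs 692 probes with 1 gene, 870 with several and 1877 with none. Of the 692, 690 were found by Entrez ID in the RefSeq gene table (TAIR10.1), used for names only. No coordinates or sequences are given.

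Values of 0 were treated as missing, the others were taken to log2 and quantile normalised, since sample medians differed by up to 0.131. Probes with 3 or more values above 0 in petc and in WT were fitted with limma 3.58.1 (lmFit, eBayes) in R 4.3.3, as petc minus WT, with Benjamini-Hochberg adjustment over 2947 probes and a threshold of 0.05. The script was tested on simulated data with samples drawn independently. These held no sets, shared replicate numbers or array scaling, so the treatment of replicates was not tested. Confidence intervals are limma's, at 95%. The number of arrays limits the precision. Figures were drawn with matplotlib 3.10.9.

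The members and lists were chosen with earlier results of these data known. Named are the members, list genes on single-gene probes, and the 3 single-gene probes of highest Pearson r with each member. Same-numbered samples shared deviations from the means of their groups (r of 0.586 to 0.649 across probes, all 4 pairs), and 8 of 8 samples correlated best with their own number. The pairing comes from the data, and the fit without the block is reported. Alternatives were other scalings, treatments of 0, filters, offsets, variance models and treatments of replicates.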

Additional observations from a re-analysis of the deposited data

How the results depend on the processing

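CHLP missed the threshold in 32 of 34 alternatives and CHLM in 34 of 34. Both kept a positive log2 fold change in all of them, from 0.04 to 0.29 for CHLP and from 0.06 to 0.31 for CHLM. Alternatives that change only the filter, the variance model or how replicates are fitted keep the log2 fold change of these genes by design. CHLP passed as deposited (0.26, limma adjusted p = 0.0490), where 28.3% of the probes did. It also passed as deposited with the replicate block (0.26, limma adjusted p = 0.0221), where 45.2% of the probes did. CHLP did not pass as deposited with numbers 1 and 2, and 3 and 4, as correlated readings (limma adjusted p = 0.241). Over all alternatives its adjusted p was 0.0221 to 0.881, and that of CHLM 0.194 to 0.750. Without each sample in turn CHLP had 0.04 to 0.11 and CHLM 0.08 to 0.28. The change of CHLM minus CHLP within arrays was -0.0205 as deposited and -0.0205 after median centring, against 0.14 after quantile normalisation, and 0.01 to 0.24 without each sample in turn. With labels permuted within replicate numbers (replicate block) its exact p was 0.625, where 0.125 is the smallest possible.

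The probes past the threshold numbered 823. They were 1374 with the replicate block, 1331 with it as deposited, 345 with the duplicates as correlated readings, 376 with these as deposited, 0 with duplicate means in limma (585 at an unadjusted p below 0.05) and 627 to 725 without each sample in turn. The replicate block changed no call of the 4 measured genes on normalised values other than that of AT1G78620. Its log2 fold change was -0.0317 (without petc replicate 3) to 0.458 (without petc replicate 1) when each sample was left out, with -0.0228 without WT replicate 1, and -0.0163 as deposited without petc replicate 3. The cause was not tested. Running-median centring, equal totals and all alternatives that combine the deposited values with another choice were added after seeing the data.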
